A study of Selaginella nipponica with 6 samples.

Results

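The unigenes described here belong to the same assembled gene group but differed in opposite directions between the prostrate and the erect shoots of *Selaginella nipponica*. Reads were assembled without a genome by Trinity, which joins overlapping reads into transcripts, and each identifier carries a group (the component, up to its c number) and a member of it (the unigene, its g number). A component was kept when it held a unigene that was much higher in the erect shoots and another that was much higher in the prostrate shoots. The members were selected on the measured levels themselves. Expression was taken as CPM, the rounded count of a unigene scaled to a library total of 1e+06 counts. The erect-high unigene had a mean of at least 2 CPM in the erect shoots and at least 4 times the mean of the prostrate shoots, with its lowest erect library above its highest prostrate library, and the prostrate-high unigene met the reverse limits. This gave 8 unigenes in 4 components, of 206768 unigenes in 178482 components. The 4 components held 22 unigenes in all. As the contrast between the types of shoots chose them, their differences between the shoots are given as a description and carry no test.

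The study compared 3 libraries of prostrate shoots, collected with their emerging roots and labelled vegetative, with 3 libraries of erect shoots, collected with their sporangia and labelled reproductive. All shoots came from a single wild population without any treatment, and their ages are not stated. The replicates were subsamples of each type of shoot, and nothing states that they were separate plants, so the SDs given (n = 3 libraries throughout) describe subsamples and may be partly technical. Roots and sporangia are each stated for a single side of the comparison, and the paper describes fewer of the root-bearing rhizophores in the erect shoots. Organ content and type of shoot therefore cannot be told apart, nor can fewer cells of a kind and less RNA per cell.

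*Selaginella* is a lycophyte, a lineage that separated early from all other living vascular plants. Its shoots bear microphylls, small leaves with a single vein, and rhizophores, leafless axes from which roots emerge, while sporangia with megaspores or microspores form on fertile shoots. In an assembly without a genome, unigenes of the same component are sequences that the assembler placed in a group, and what they share was not examined. They can be close paralogs, alleles of a gene, pieces of a transcript that were not joined, or splice forms that the assembler listed under different g numbers. The authors took the longest transcripts as unigenes, and the identifiers alone do not settle which case holds. Each of the 4 pairs is therefore a pair of sequences grouped by the assembler, and their relation was not analysed here. As no lengths were at hand, CPM is not corrected for transcript length. Changes of a unigene between the shoots are unaffected by this, whereas a rank or a share within a component is one of reads and may not be one of transcripts. The counts come with no gene names and no sequences, and none of the 18 unigenes that the text of the paper names lay in the 4 components, so no function is given for any member.

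The prostrate libraries held 15679144 to 17584114 counts and the erect libraries 18001138 to 20243960. Counts of replicates varied beyond sampling noise (chi-square per degree of freedom 28.0 to 111.8). Defining markers of roots or sporangia could not be looked up by the identifiers.

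By the limits used, opposite change within a component was rare, and the count depends on these limits. With 2-fold in place of 4-fold it was 41 components, and with 8-fold it was 0. Of 16271 components with 2 or more unigenes, 3908 had 2 or more at a mean of at least 2 CPM in either type of shoot, and the 4 kept components were 0.102% of these. By the same limits, 986 unigenes were erect-high and 475 were prostrate-high, and 480 of the 3908 components held any of them. In 142 components 2 or more unigenes passed the limits. All of the passing unigenes were erect-high in 100 of these components and prostrate-high in 38, and both directions occurred in the remaining 4, or 2.82%. Unigenes of the same component can share reads, so a shared direction can come from the counting as well as from the plants, and this was not tested.

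**Figure D1:**
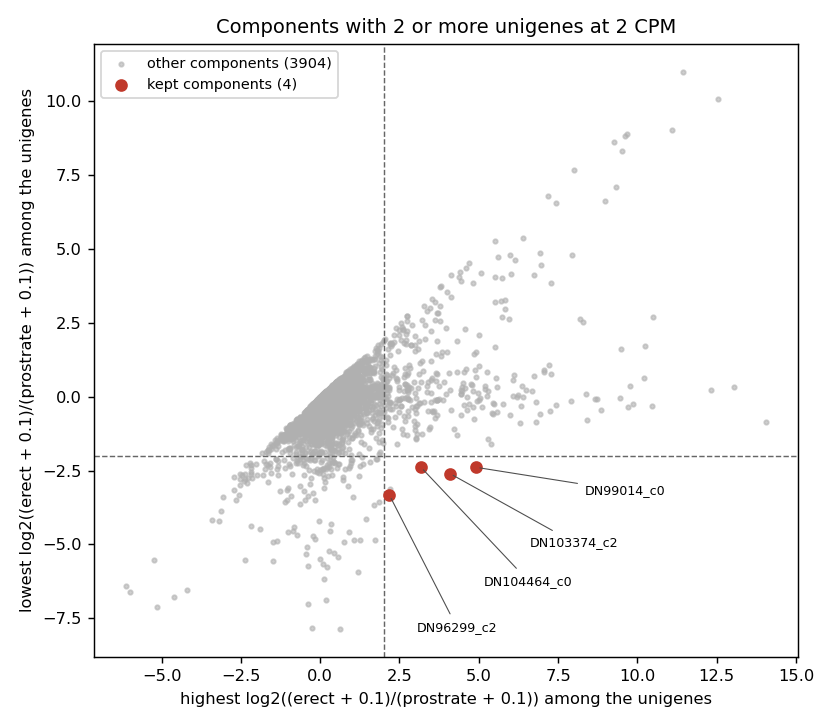
Each point is a component with 2 or more unigenes at a mean of at least 2 CPM (3908 components), placed by the highest (x axis) and the lowest (y axis) log2 ratio of erect to prostrate mean CPM among those unigenes, with 0.1 CPM added to each mean. Dashed lines mark a 4-fold difference, and 5 components lie past both lines, the 4 kept components (red) and DN98104_c0, in which prostrate and erect libraries overlapped.

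All 8 members passed edgeR's filter on low counts, and all 8 were also called as DEGs (differentially expressed genes, changed by more than 1 on the log2 scale with a Benjamini-Hochberg adjusted p under 0.05) in a fit over 23275 unigenes. Over all unigenes tested 7.94% were called higher in the erect shoots and 5.31% higher in the prostrate shoots. Nothing is read from the members' count, since the same contrast had chosen them.

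DN104464_c0 was the component with the highest erect-high level, and the only kept component in which both members exceeded 10 CPM in the shoot where they were high. It held 3 unigenes. DN104464_c0_g3 had 6.86, 7.59 and 6.94 CPM in prostrate replicates 1, 2 and 3 and 51.8, 60.7 and 83.0 CPM in erect replicates 1, 2 and 3. The prostrate libraries were nearly level and each erect library was at least 6.83 times as high as the highest of them. The means were 7.13 ± 0.40 and 65.2 ± 16.1 CPM, a ratio of 9.14.

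In the same component DN104464_c0_g2 ran in the other direction. It had 409, 640 and 300 CPM in prostrate replicates 1, 2 and 3 and 47.6, 74.1 and 136.1 CPM in erect replicates 1, 2 and 3. Prostrate replicate 2 was the highest library and erect replicate 3 the highest among the erect shoots, where the level was 2.20 times below the lowest prostrate library. Means were 449.6 ± 173.5 and 85.9 ± 45.4 CPM, so the level was 5.23-fold lower in the erect shoots. The share of the erect-high unigene in the counts of the pair went from 1.69% ± 0.546 to 45.0% ± 7.11. It had more counts than its partner in 1 of the 3 erect libraries, erect replicate 1, and fewer in the other 5 libraries.

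The third unigene of the component, DN104464_c0_g1, was not called, at 21.0 ± 7.92 CPM in prostrate and 26.3 ± 1.37 CPM in erect shoots, with overlapping libraries. Added together, the 3 unigenes had 432, 677 and 324 CPM in prostrate replicates 1, 2 and 3 and 124.2, 161.4 and 246.5 CPM in erect replicates 1, 2 and 3. The mean sum was 477.7 ± 181.2 CPM in prostrate shoots and 2.69-fold lower, at 177.3 ± 62.7 CPM, in erect shoots, without overlap. Measured in CPM, the increase of DN104464_c0_g3 by 58.0 amounted to 16.0% of the decrease of DN104464_c0_g2.

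DN103374_c2 contained the prostrate-high unigene with the highest level, DN103374_c2_g1. Its levels were 788, 940 and 634 CPM in prostrate replicates 1, 2 and 3 and 63.8, 116.0 and 208.7 CPM in erect replicates 1, 2 and 3. Here too erect replicate 3 was the highest of the erect libraries, and it was 3.04 times below the lowest prostrate library. The means of 787.7 ± 153.0 and 129.5 ± 73.4 CPM were 6.08-fold apart.

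Its partner DN103374_c2_g4 was nearly absent from the prostrate shoots, where prostrate replicates 1, 2 and 3 held 3, 3 and 2 counts, against 94, 78 and 76 for erect replicates 1, 2 and 3. In CPM the means were 0.162 ± 0.0424 and 4.38 ± 0.249, a ratio of 26.9, and the erect libraries lay close together. The unigene nevertheless stayed a small part of its component, at 3.27% ± 1.69 of the component's counts in the erect shoots, where DN103374_c2_g1 still made up 79.0% ± 8.84. In each of the 6 libraries the prostrate-high unigene had the higher count.

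Of the other 3 unigenes of this component, DN103374_c2_g3 was at 38.2 ± 6.65 CPM in prostrate and 21.7 ± 1.39 CPM in erect shoots, and DN103374_c2_g2 at 5.52 ± 1.41 and 2.91 ± 0.510 CPM. Neither was called, although in both the prostrate libraries lay above the erect libraries. DN103374_c2_g5 had 3 counts in all. The sum of the 5 unigenes followed the prostrate-high unigene, at 831.5 ± 148.0 CPM in prostrate shoots and 5.24-fold lower, at 158.6 ± 74.3 CPM, in erect shoots. The gain of DN103374_c2_g4, 4.21 CPM, was 0.640% of what DN103374_c2_g1 lost.

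DN99014_c0 showed the same arrangement at a lower level. DN99014_c0_g3, its prostrate-high unigene, had 123.1, 131.1 and 62.7 CPM in prostrate replicates 1, 2 and 3 and 15.2, 14.2 and 30.8 CPM in erect replicates 1, 2 and 3. Prostrate replicate 3 was the lowest prostrate library and erect replicate 3 the highest erect library, and between them the ratio was 2.04. The means of 105.6 ± 37.4 and 20.04 ± 9.33 CPM gave a ratio of 5.27.

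DN99014_c0_g1 had no count in any prostrate library, while erect replicates 1, 2 and 3 held 74, 62 and 31 counts, fewest in the library where its partner was highest among the erect shoots. The erect level was 2.93 ± 1.08 CPM. An upper limit for the prostrate shoots was set at 3 counts over all their libraries together (0.0603 CPM). The pooled erect level of 2.95 CPM was 48.9 times this limit. That ratio allows for counting error in the prostrate libraries only, not for error in the erect counts or for the spread between libraries. Even so DN99014_c0_g1 reached 11.2% ± 6.05 of the component's counts in the erect shoots, against 67.0% ± 13.4 for DN99014_c0_g3, which had the higher count in all 6 libraries.

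The other unigenes of DN99014_c0 were DN99014_c0_g2, at 2.72 ± 1.5 CPM in prostrate and 6.05 ± 2.40 CPM in erect shoots with overlapping libraries, and DN99014_c0_g4, with no prostrate count and 6 erect counts. The sum of the component, 108.4 ± 36.2 CPM in prostrate and 29.1 ± 8.13 CPM in erect shoots, was 3.72-fold lower in the latter.

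DN96299_c2 differed from the other components in size and level. It held 10 unigenes, where the median over the 3908 components was 3 and the highest number was 15, and none of its unigenes reached 6 CPM in any library. DN96299_c2_g5 had 0.607, 0.574 and 0.398 CPM in prostrate replicates 1, 2 and 3 and 2.52, 2.78 and 2.95 CPM in erect replicates 1, 2 and 3. These were between 7 and 10 counts and between 50 and 54 counts per library, and the means of 0.526 ± 0.112 CPM and 2.75 ± 0.216 CPM had a ratio of 5.22.

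DN96299_c2_g1 had the widest spread of the members. Prostrate replicates 1, 2 and 3 held 14, 73 and 96 counts, and erect replicates 1, 2 and 3 held 1, 2 and 12. The means were 3.66 ± 2.46 and 0.272 ± 0.333 CPM (13.4-fold). Prostrate replicate 1, with 14 counts, was only 1.30 times the level of erect replicate 3, with 12 counts, so the groups were barely apart. Without prostrate replicate 2 or 3 the unigene was not called and its log2 fold change was -3.62 or -3.49, and without erect replicate 1 or 2 it was not called either, at -3.32 or -3.46. Without erect replicate 3, which held 12 of the 15 erect counts, it was called and the log2 fold change moved from -3.84 to -5.52, and without prostrate replicate 1 it was called at -4.33. All of these fits had a library fewer than the full fit. As the contrast had chosen the member, nothing is read from which calls were lost.

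This was the single component in which the erect-high member had more counts than its partner in all 3 erect libraries, with 92.0% ± 8.88 of the counts of the pair there and 19.8% ± 19.0 in the prostrate shoots. In the erect shoots, however, DN96299_c2_g9 with 4.04 ± 1.60 CPM and DN96299_c2_g6 with 3.66 ± 1.22 CPM both had more counts on average. Neither was called. The component sum was 10.6 ± 2.94 CPM in prostrate and 13.4 ± 1.09 CPM in erect shoots, a ratio of 1.27 with overlapping libraries, and the sum over its members alone ran the other way (log2 ratio -0.47, against 0.35 for all 10).

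**Figure D2:**
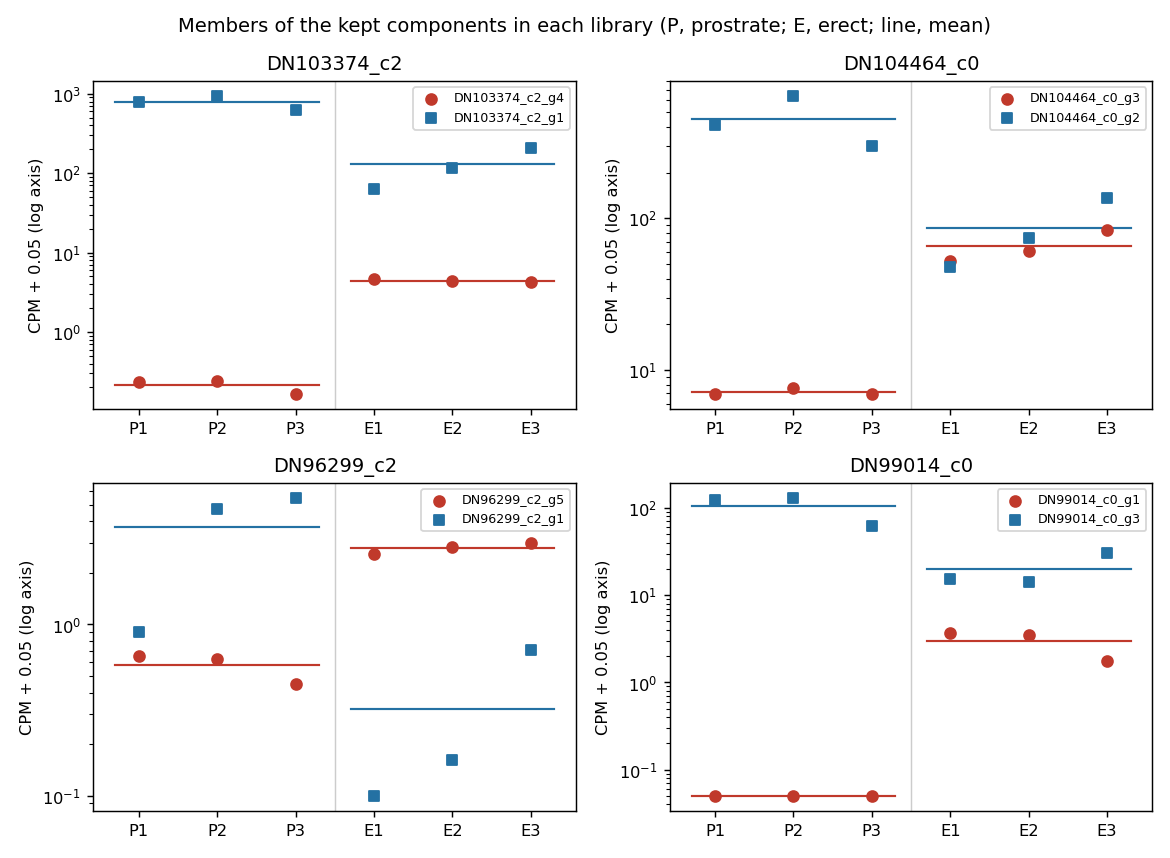
CPM of the erect-high (red circles) and prostrate-high (blue squares) unigene of each component in prostrate replicates 1 to 3 (P1 to P3) and erect replicates 1 to 3 (E1 to E3), on a log axis after 0.05 CPM was added, with lines at the group means. The erect-high unigene stays below its partner in all libraries of DN103374_c2 and DN99014_c0, meets it in the erect libraries of DN104464_c0 and passes it in all 3 erect libraries of DN96299_c2.

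Whether the shoots switched from one unigene to another was then read from these levels. In all 4 components the peak of the prostrate-high unigene lay above that of the erect-high unigene in CPM, narrowly in DN96299_c2 (3.66 and 2.75 CPM) and most widely in DN103374_c2 (787.7 and 4.38 CPM). The unigene with the highest mean CPM changed between the types of shoots in 1 of the 4, DN96299_c2, from DN96299_c2_g1 to DN96299_c2_g9, which is not a member. This change rests on single libraries. DN96299_c2_g9 led in erect replicate 1 with 117 counts, but in erect replicates 2 and 3 it had 67 and 48 counts, below the 74 and 84 of DN96299_c2_g6. In prostrate replicate 1 the 14 counts of DN96299_c2_g1 were below the 36 of DN96299_c2_g6, the 23 of DN96299_c2_g2 and the 20 of DN96299_c2_g9. By group means, first rank passed from the prostrate-high to the erect-high unigene in none of the 4. By single libraries it did so in erect replicate 1 of DN104464_c0, where DN104464_c0_g3 had 1049 counts, DN104464_c0_g2 had 964 and DN104464_c0_g1 had 501. In all libraries of DN103374_c2 and DN99014_c0 the prostrate-high unigene kept first rank.

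With a limit of 2-fold in place of 4-fold, 41 components with 91 unigenes were kept, and there first rank by group means passed from a prostrate-high to an erect-high unigene in 20. The component sum was more than 2-fold lower in the erect shoots in 3 of the 4 components, and in 7 of the 41, while it was within 2-fold in 1 of the 4 and in 29 of the 41. A sum more than 2-fold higher in the erect shoots occurred in none of the 4 and in 5 of the 41. The 4 components are part of the 41, and these counts were not tested.

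Across the 4 components the sums had a median absolute log2 ratio of 1.66, and across the 3908 components with 2 or more unigenes at 2 CPM it was 0.33, where 84.8% of sums were within 2-fold. Each of the 4 holds unigenes chosen for a change of at least 4-fold, whereas 480 of the 3908 hold any unigene past the limits. Nothing is read from the difference between the medians. In edgeR's quasi-likelihood test on the summed counts, 3 of the 4 sums were called, each higher in the prostrate shoots. Over the 16188 components tested, 5.01% were called higher in the prostrate and 7.7% higher in the erect shoots, and as the sums carry the contrast that chose the members nothing is read from this. The log2 fold changes of the sums were -2.49 (standard error 0.363) for DN103374_c2, -2.0 (standard error 0.322) for DN99014_c0, -1.53 (standard error 0.353) for DN104464_c0 and 0.24 (standard error 0.269) for DN96299_c2. The sum of DN104464_c0 was not called without prostrate replicate 1 or 2, at log2 fold changes of -1.68 and -1.25, nor without erect replicate 1 or 2, at -1.32 and -1.45. Each of these fits had a library fewer, so a lost call does not show that the sum depends on the library left out.

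**Figure D3:**
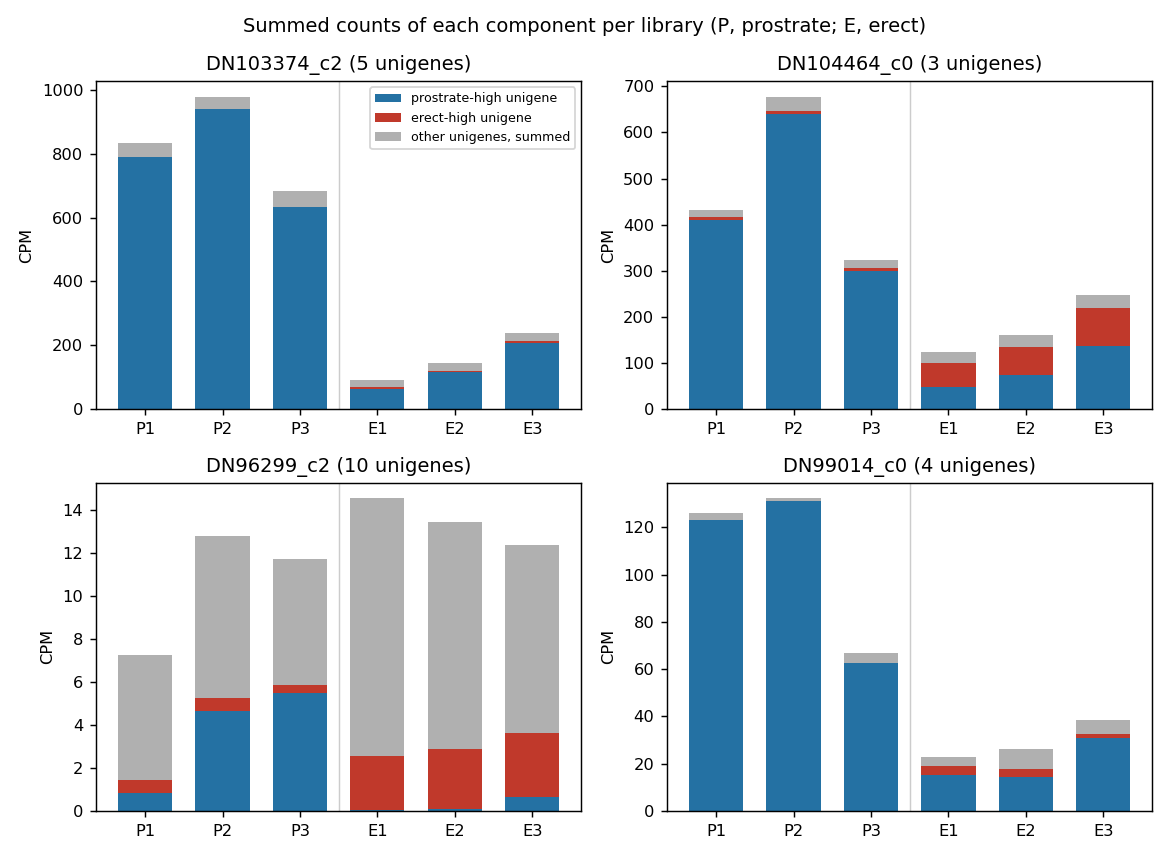
Stacked bars give the CPM of the prostrate-high unigene (blue), the erect-high unigene (red) and all other unigenes (grey) of each component in prostrate (P1 to P3) and erect (E1 to E3) replicates 1 to 3. The prostrate-high unigene fills most of each prostrate bar except in DN96299_c2, and the totals overlap between the types of shoots only in DN96299_c2. On average the erect-high unigene is 37.7% of the erect bars in DN104464_c0, 20.6% in DN96299_c2, 11.2% in DN99014_c0 and 3.27% in DN103374_c2.

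The components held 14 further unigenes that were not members. By construction none passed the limits, 7 had fewer than 30 counts over the 6 libraries, and the other 7 were tested. With edgeR none of the 7 was called, 2 had an unadjusted p under 0.05 (DN103374_c2_g2 and DN103374_c2_g3), and DESeq2 called none of the 14. With 7 tested and the shares of called unigenes given above, nothing is read from this count. Ratios were sizeable in some, such as DN96299_c2_g6, 3.02-fold higher in the erect shoots, and DN96299_c2_g3, 5.95-fold lower there on 24 prostrate and 5 erect counts. Other components that carry the same number before the c were found for DN103374 and DN96299, 2 each, and had sums below 1 CPM in both types of shoots.

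**Figure D4:**
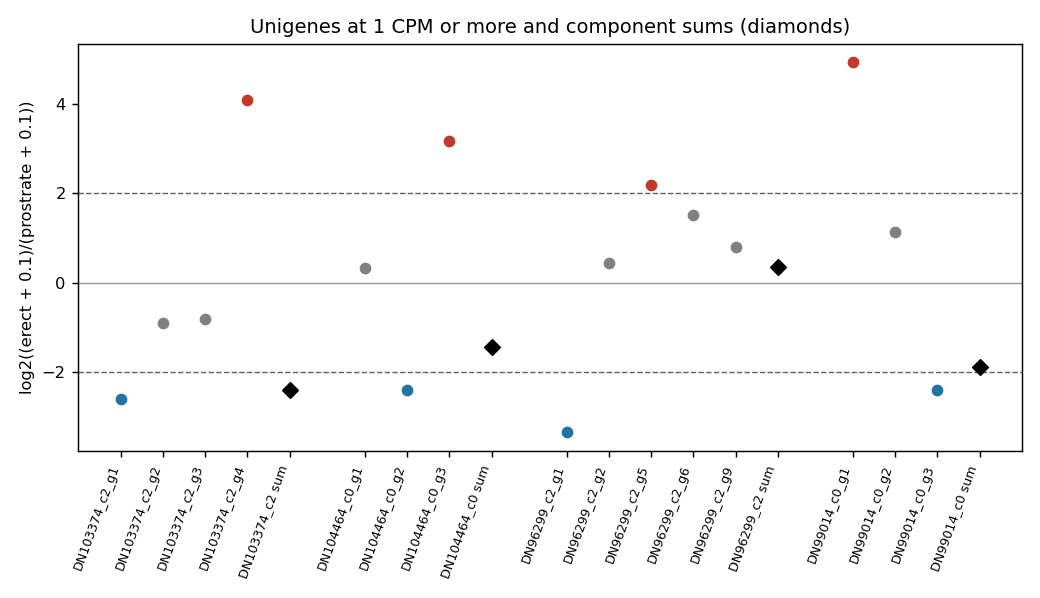
Log2 ratio of erect to prostrate mean CPM, with 0.1 CPM added to each mean, for the unigenes of each component that had a mean of at least 1 CPM in either type of shoot (circles; red, erect-high members; blue, prostrate-high members; grey, others) and for the component sum (black diamonds), with dashed lines at 4-fold. The diamonds of DN103374_c2, DN104464_c0 and DN99014_c0 lie below 0 and above the blue points, closest to the blue point in DN103374_c2. That of DN96299_c2 lies just above 0.

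The libraries within a type of shoot were not used by the limits beyond the absence of overlap. The prostrate-high members had their highest erect level in erect replicate 3 in 4 of 4 cases, and over all 475 prostrate-high unigenes this library was the highest of the erect shoots in 39.8%. Prostrate replicate 3 was the lowest prostrate library in 3 of 4, against 34.9% of the 475. The 4 erect-high members had no such common library. On log2(CPM + 1) the SD between the 3 libraries in which a member was high had a median of 0.39 over the 8 members. It was lowest for DN103374_c2_g4 (0.07) and DN96299_c2_g5 (0.08) and highest for DN96299_c2_g1 (0.99). Over all unigenes with a mean of at least 2 CPM the median was 0.19 in the erect and 0.35 in the prostrate shoots, and 5 of the 8 members lay above the median of their shoot type.

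The limits were also applied to 2 libraries of each type, and the remaining pair of libraries, which had no part in that choice, was then read. Over the 9 ways of leaving out a prostrate and an erect library, between 3 and 13 components were chosen, 77 choices in all of 27 different components. In the left-out libraries the leading unigenes of both directions differed at least 4-fold in 25 of the 77 choices (32.5%) and kept their direction in 55 (71.4%). Of these 55, 34 belong to the 4 components, where the limits over all libraries had fixed the direction of the members. They had not fixed that of DN96299_c2_g6, which is not a member and was chosen in 3 of the 34. With 1 library on each side the reading carries no test, and the 9 ways share libraries. The 25 choices all fell on the 4 components. A unigene that differs at least 4-fold in the chosen and again in the left-out libraries also differs 4-fold over all libraries. That all 25 fell there is therefore largely set by the limits over all libraries, and it is not read as replication. DN103374_c2 and DN99014_c0 were chosen in 9 of 9 ways and held 4-fold in 7 each, DN96299_c2 was chosen in 9 and held in 6, and DN104464_c0 was chosen in 7 and held in 5. In the 3 ways without prostrate replicate 1 the erect-high unigene chosen in DN96299_c2 was DN96299_c2_g6, not the member DN96299_c2_g5, and these were the 3 that did not hold. When prostrate replicate 1 and erect replicate 3 were left out together, 13 components were chosen and none held 4-fold in them. With prostrate replicate 3 and erect replicate 3 left out, 1 of 12 held.

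The deposited values are estimates, in which a fragment that fits several unigenes is usually divided between them, so that a value which is not whole can mark shared reads. The limits did not use this property, but they did use the level. Of the 132 values of the 4 components, 24 (18.2%) lay more than 0.015 from a whole number, compared with 8.0% in the other components with 2 or more unigenes. Those other components were not matched for level, and a unigene without counts has only whole values. The difference between these shares is therefore not read as one in shared reads. Summing over the component made 6 of the 24 whole (25.0%), and 19.1% in the other components. With a tolerance of 0.05 it was 8 of 24 (33.3%) and 21.4%. Among the members 12 of 48 values were not whole, in 3 unigenes, and 5 members were whole in all 6 libraries. Both members of DN99014_c0 and of DN96299_c2 were among these 5, as was DN103374_c2_g4.

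The divided values were spread unevenly. DN103374_c2_g1 was not whole in 5 libraries, and the sum of its component stayed not whole in each of them, although in prostrate replicate 3 the sum missed a whole number by only 0.0208. In DN104464_c0 the prostrate-high unigene was not whole in the 3 prostrate libraries, where its partners were whole, so its fraction was not met inside the component. In erect replicates 1 and 2 the fractions lay instead in the erect-high DN104464_c0_g3 and in DN104464_c0_g1, at 1049.27 and 500.736 estimated counts in replicate 1, and the component summed to a whole number. In 1 library only, erect replicate 3 of this component, were both members of a pair not whole. As the counting could have divided reads with unigenes outside the component, the levels of DN103374_c2_g1, DN104464_c0_g2 and DN104464_c0_g3 are uncertain to that extent. A whole value does not show that no reads were shared, so the levels of the other members can be uncertain too. How far divided reads shape the opposite changes was not tested.

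Near the limit, DN96299_c2 and DN104464_c0 were the components just inside, with a smaller fold of 5.22 and 5.23. Just outside lay DN103642_c0 at 3.81 and DN99081_c1 at 3.77. DN103642_c0_g5 had 1.15, 0.893 and 2.33 CPM in prostrate replicates 1, 2 and 3 and 4.99, 5.67 and 6.01 CPM in erect replicates 1, 2 and 3. Its partner DN103642_c0_g2 had 1446, 1369 and 874 CPM in prostrate replicates 1, 2 and 3, and 98.1, 245.6 and 610.9 CPM in erect replicates 1, 2 and 3, again highest among the erect libraries in replicate 3. In DN99081_c1 the means were 0.759 ± 0.386 CPM in prostrate and 2.86 ± 1.05 CPM in erect shoots for DN99081_c1_g6, with a highest prostrate library of 1.15 CPM and a lowest erect library of 1.67 CPM. Those of DN99081_c1_g4 were 40.4 ± 11.6 and 9.19 ± 2.49 CPM, with a lowest prostrate library of 32.7 CPM and a highest erect library of 10.9 CPM. As in the kept components, the prostrate-high unigene had the higher peak in both.

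With TMM-scaled totals DN97835_c0 joined the 4. On that scale DN97835_c0_g5 was at 0.371 ± 0.435 CPM in prostrate and 2.25 ± 0.216 CPM in erect shoots, and DN97835_c0_g2 at 2.08 ± 1.24 and 0.155 ± 0.193 CPM, both near the minimum of 2 CPM.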

How the data were processed

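The 6 mRNA libraries were sequenced from both ends. The authors assembled the reads with Trinity and took the longest transcripts as unigenes, and the submitters' processing notes list Trimmomatic 0.36 and HISAT2 2.1.0 without their roles. The deposited values are estimated counts per unigene and library, not scaled for library size or transcript length and not pooled. CPM of different unigenes therefore also reflect their lengths. Which program counted the reads was not given in the sources used.

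Estimated counts were rounded to whole numbers and divided by library totals (pandas 2.3.3). Tests used edgeR 4.0.16 in R 4.3.3 (glmQLFit, glmQLFTest, TMM, filterByExpr with min.count 10 and min.total.count 15, type of shoot as the only term), with Benjamini-Hochberg adjustment over all unigenes or components tested, and DESeq2 1.42.0 as an alternative. Calls needed an adjusted p under 0.05 and a change of more than 1 on the log2 scale. The scripts were first tested on simulated data. Members, limits and lists were chosen with earlier results of these data known. With 4 components kept, the rule for naming took every pair. It also took the 2 components nearest outside the limit, while DN97835_c0 and the unigenes that were not members were named after their values were seen. Alternatives covered the limits, the scaling, rounding, the component, the tool, the filter, a replicate block and each library left out. Figures were drawn with matplotlib 3.10.9. Sequences, TPM and RT-qPCR were not used here.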

Additional observations from a re-analysis of the deposited data

How the results depend on the processing

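The number of components followed the limits. It was 41 (91 unigenes) at 2-fold, 0 (0 unigenes) at 8-fold, 19 (40) at a minimum of 1 CPM and 1 (2) at 10 CPM, where DN104464_c0 was the component left. Grouping by the number before the c gave 8 (17). Taking 2 DEGs in opposite directions gave 38 components (80 unigenes) with edgeR and 64 (141) with DESeq2, each including the 4. With a library left out it was between 4 and 9 (8 and 20 unigenes), again including the 4, with 9 (20) without prostrate replicate 1, 8 (16) without erect replicate 3 and 13 unigenes without erect replicate 2. TMM or DESeq2 scaling, counts not rounded and overlap allowed gave between 4 and 6 components. In the left-out libraries, 40 of the 77 choices held at 2-fold and 55 in direction.

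The number of members called was 8 with DESeq2, without a filter and with the replicate block, and 7 or 8 with a library left out. With the replicate block 2 component sums were called in place of 3 (DN104464_c0 was lost, at a log2 fold change of -1.54), and with a library left out 2 or 3. Deviations of same-numbered libraries from the mean of their type of shoot had correlations of -0.32, 0.05 and -0.14 over 23275 unigenes. For differently numbered libraries they lay between -0.15 and 0.24. Deviations from a mean of 3 libraries are not independent, so whether the numbers pair the libraries cannot be decided from this. With a library left out, the median absolute log2 ratio of the sums was between 1.41 and 1.94 and the median SD between replicates was between 0.22 and 0.51, while 1 sum was within 2-fold each time. No other call among the members and sums changed with the block. Levels below 1 CPM rest on few counts, which limits DN96299_c2 most.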
